A study of Rattus norvegicus with 10 samples.

Results

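The H3K27ac list of RCS cells holds 50834 peaks, out of 252939 in the 6 peak lists of the series. All intervals of the list were taken, with no filter on score or width. RCS cells are a line grown from a rat chondrosarcoma, a tumour of cartilage-forming cells. The labels name no treatment, genotype or time. Chromatin immunoprecipitation with sequencing (ChIP-seq) was done on them with an antibody against H3K27ac (ab4729, Abcam). The background was an input library of the same name, sequenced from RCS chromatin without an antibody. The 10 samples of the series comprise this pair, 5 other immunoprecipitations (SOX9, SOX6, H3K4me1, H3K4me3 and H3K9me3) and 3 other inputs. Each antibody has 1 library, so no value has a replicate error and no test between conditions was possible. The input held 36873004 reads, of which 53.4% aligned and 15631865 aligned without a mismatch.

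H3K27ac is acetylation of lysine 27 on histone H3, written by the related enzymes p300 and CBP. It marks promoters and enhancers in use, and it stands against methylation of the same residue, with which Polycomb silences genes. H3K4me3 lies mainly at promoters and H3K4me1 mainly at enhancers, while H3K9me3 marks heterochromatin. In cartilage cells SOX9 is the master regulator of the chondrocyte programme, and SOX6 assists it. Coordinates are on rn5 and count from 1. An annotation and a sequence of rn5 were not used here, so no peak is given a gene and the chondrocyte identity of the cells was not checked on marker genes. Chromosome lengths were not used here either, and the last peak end over the 6 lists stood in for each.

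The acetylated intervals covered 82.3 Mb, or 2.84% of the span of the 21 chromosomes, and they ranged from 227 bp to 27884 bp. The median width was 1212 bp, with quartiles of 711 and 2055 bp and a mean of 1619 bp. The widths had a pair of maxima on a log scale. The first lay between 562 and 631 bp, where a single bin held 5510 peaks (10.8%) with a median score of 59.5. The other lay between 1585 and 1778 bp, with 2889 peaks and a median score of 882. The score is a value the authors deposited for each peak, of unstated scale, with a lowest value of 50.04 in this list. The score 3100 was shared by 9333 peaks, so it cannot order them. It was not the highest score, as 298 peaks lay above it, up to 3233.06.

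A minority of wide peaks held most of the acetylated length. Ranked by width, 11983 peaks (23.6%), all at least 2118 bp wide, were enough to reach 50% of it. Peaks under 1000 bp made up 41.7% of the list but 17.7% of the length. Those of 2 to 5 kb were 23.6% of the peaks and 41.7% of the length. The 1381 peaks of 5 kb or more were 2.72% of the list and 11.8% of the length, and the 127 peaks of 10 kb or more were 0.250% and 2.04%. The other lists had less of their length in such peaks, at 5.74% for H3K4me1, 4.57% for H3K4me3 and 1.12% for H3K9me3. The H3K27ac median lay between those of H3K4me3 (1509 bp) and H3K4me1 (945 bp). Lists were processed separately from libraries whose depth was not used here, so these widths are a description of lists.

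**Figure D1:**
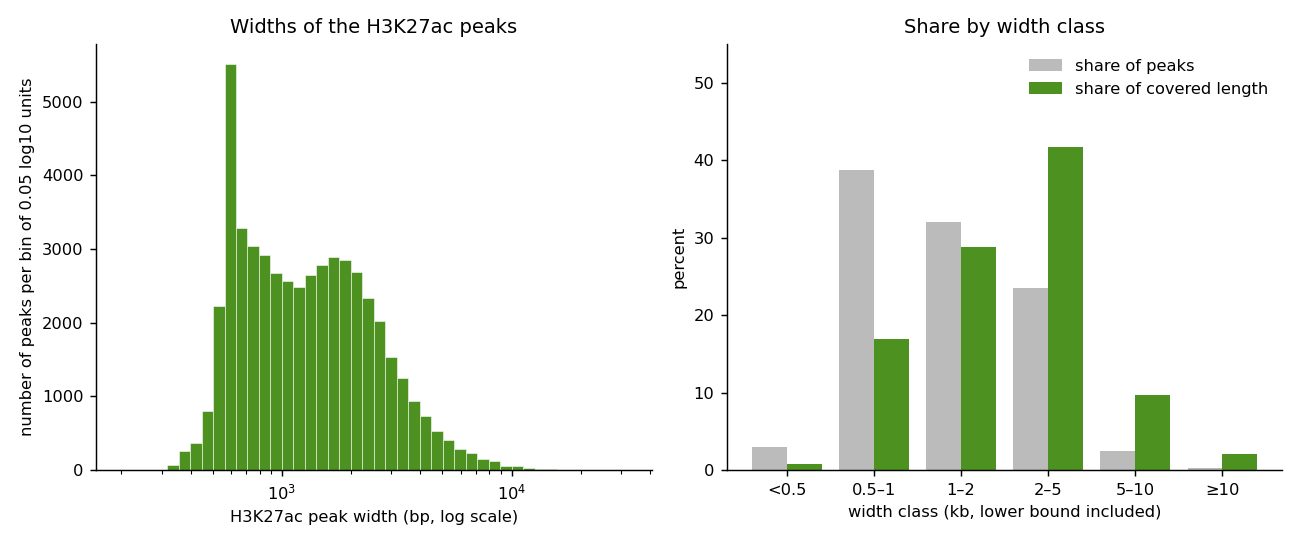
Left, number of H3K27ac peaks by width in bp on a log axis, in bins of 0.05 log10 units. Right, share of peaks (grey) and of covered length (green) by width class in kb. A narrow group of peaks stands left of a broader one, and the class of 2 to 5 kb holds 41.7% of the length with 23.6% of the peaks.

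From 0.5 to 5 kb, scores were higher in wider classes. The median score was 84.5 (quartiles 61.7 and 134) for peaks of 0.5 to 1 kb, 521 (258 and 1325) for 1 to 2 kb, and 3100 (1679 and 3100) for 2 to 5 kb. The 1485 peaks under 500 bp did not continue the order, with a median of 87.3 (70.1 and 141). At 5 to 10 kb the median and both quartiles were 3100, so medians cannot order the classes from 2 kb upward. The share of peaks with a score of 3100 was 55.2% at 2 to 5 kb and 96.3% at 5 to 10 kb. All 127 peaks of 10 kb or more had a score of 3100. Scores under 100 were held by 60.3% of the peaks of 0.5 to 1 kb, 0.117% of those of 1 to 2 kb and none of the wider ones. Peaks under 1 kb are therefore also the low-scoring ones in this list, and width and score cannot be told apart as the quantity that any comparison below follows.

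The company of an acetylated interval changed with its width. Wide peaks collect more overlaps simply by their length, so shares of covered length are given for the histone marks and peak centres per 10 kb for the SOX factors. H3K4me1 peaks lay over 43.1% of the length of peaks under 500 bp, 61.6% for 0.5 to 1 kb, 65.0% for 1 to 2 kb, 69.2% for 2 to 5 kb and 79.0% for 10 kb or more. The enhancer mark thus took up more of each wider class, against 4.0% of the whole span. H3K4me3, the promoter mark, did not climb steadily. It lay over 17.0% of the length of peaks under 1000 bp, 41.4% for 1 to 2 kb, 47.1% for 2 to 5 kb and 37.3% for 5 kb or more, with 1.37% of the span. H3K9me3 went from 14.3% in peaks under 500 bp to 3.16% in those of 2 to 5 kb, then stood at 4.73% at 5 to 10 kb and 3.38% at 10 kb or more, against 1.56% of the span. By length, the heterochromatin mark thus took up the most of the narrowest class. The share of peaks with any H3K9me3 overlap had another order, at 15.5% under 500 bp, 19.1% at 5 to 10 kb and 21.3% at 10 kb or more.

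SOX9 and SOX6 peak centres were denser in wider acetylated intervals up to 5 to 10 kb. SOX9 centres numbered 0.643 per 10 kb (95% Poisson interval 0.601 to 0.686) in peaks of 0.5 to 1 kb and 1.30 (1.25 to 1.34) in those of 1 to 2 kb. They reached 1.70 (1.66 to 1.75) at 2 to 5 kb and 1.86 (1.76 to 1.95) at 5 to 10 kb. At 10 kb or more the value was 1.83 (1.63 to 2.05), an interval that includes that of the class below. SOX6 followed the same course, with 1.01, 1.59, 2.01, 2.26 and 2.06 centres per 10 kb (last interval 1.85 to 2.29). The length under SOX peaks did not level off in the same way. For 2 to 5 kb, 5 to 10 kb and 10 kb or more, SOX9 peaks lay over 12.8%, 16.9% and 20.3% of the acetylated length, and SOX6 peaks over 12.3%, 15.8% and 16.3%. These intervals, like the Wilson intervals below, take in counting error alone, and peaks that lie side by side are not independent of each other. Over the whole span there were 0.0509 SOX9 and 0.0667 SOX6 centres per 10 kb.

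**Figure D2:**
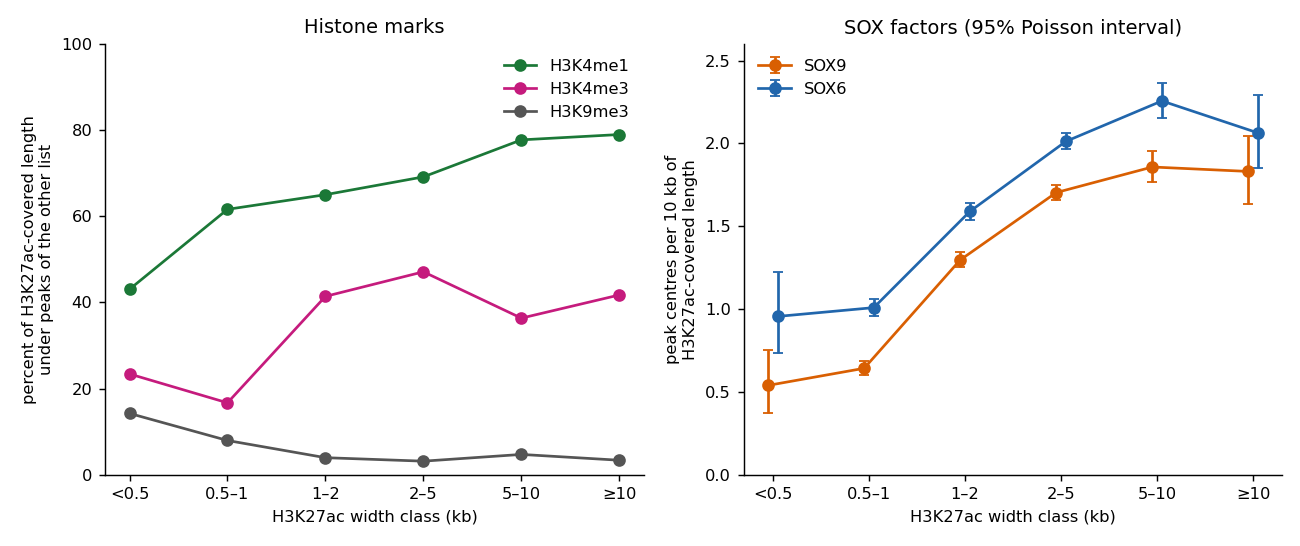
Left, percent of H3K27ac-covered length under peaks of H3K4me1, H3K4me3 and H3K9me3, by H3K27ac width class in kb. Right, SOX9 and SOX6 peak centres per 10 kb of H3K27ac-covered length, with 95% Poisson intervals. H3K4me1 goes from 43.1% to 79.0%, and the SOX9 and SOX6 centres per 10 kb rise no further past the class of 5 to 10 kb.

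Where SOX peaks fell inside an acetylated interval, they sat towards its middle. Each H3K27ac peak was divided into a central, an intermediate and an outer zone of equal total length. Of 11647 SOX9 centres inside H3K27ac peaks, 57.2% (95% Wilson interval 56.3% to 58.1%) were in the central and 10.4% (9.84% to 10.9%) in the outer zone, where an even spread would give equal shares. Of 14297 SOX6 centres, 52.6% (51.8% to 53.4%) were central and 12.8% (12.3% to 13.4%) outer. In peaks of 5 kb or more the central shares were lower, 46.8% (44.5% to 49.1%) for SOX9 and 44.2% (42.1% to 46.3%) for SOX6.

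By combination of H3K4 marks, the acetylated peaks with both H3K4me1 and H3K4me3 were the widest. They numbered 16106 (31.7%), were 2008 bp wide at the median and held 46.5% of the covered length. Peaks with H3K4me1 and no H3K4me3 were the most numerous, at 24991 (49.2%), with a median of 1033 bp. H3K4me3 without H3K4me1 was met by 3575 peaks (7.03%), median 1057 bp, and neither mark by 6162 (12.1%), median 631.5 bp and median score 77.9. Only 0.0162% of the last group reached 5 kb, against 6.06% of those with both marks. A wide peak has more room to meet both lists, so these widths are not independent of the grouping.

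The 10 widest peaks lay on 5 chromosomes and all had a score of 3100. The widest spanned 27.9 kb on chromosome 3 from 179792919 to 179820802. H3K4me1 covered 82.1% and H3K4me3 45.3% of it, and it held 3 SOX9 and 6 SOX6 centres. The next spanned 25.4 kb on chromosome 1 from 222532415 to 222557791, and the peak ranked 9 lay near it, from 222488792 to 222508223. The peak ranked 3, on chromosome 14 from 91829168 to 91854059 (24.9 kb), was the exception in H3K4me3, which covered none of it, while H3K4me1 covered 82.3%. At the other end, H3K4me3 covered 86.6% of the peak of 22.3 kb on chromosome 19 from 36859306 to 36881557. The peak on chromosome 7 from 26819255 to 26841561 held the most SOX centres of the 10, 8 of each factor, and also 5 H3K9me3 centres.

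Chromosome 1 held 2 more of this set, at bases 191888331 to 191911257 and 141720158 to 141740683. Chromosome 3 held another at 166709682 to 166730335, and chromosome 7 at 139658083 to 139677361. All 10 held at least 2 SOX9 and 2 SOX6 centres, and H3K4me1 covered between 65.9% and 96.0% of each. Of the 127 peaks of 10 kb or more, 127 overlapped H3K4me1, 110 H3K4me3, 123 SOX9, 120 SOX6 and 27 H3K9me3. In percent these were 100%, 86.6%, 96.9%, 94.5% and 21.3%. Over the whole list the shares were 80.8%, 38.7%, 20.7%, 24.0% and 8.84%. Peaks this wide have more room to meet any list, so the counts do not separate width from the company of a peak. These 127 peaks lay on 19 chromosomes, with 13 on chromosome 1 and 0 on X. Of all 50834 peaks of the list, 5204 lay on chromosome 1 and 927 on X, so the 2 counts are not read as a trait of wide peaks.

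Spacing was more uneven than width. The 50813 gaps between neighbouring peaks of a chromosome had a median of 8.45 kb and quartiles of 871 bp and 36.3 kb. Their mean of 55.3 kb was 6.55 times the median. On a log scale, the fullest bin of gap lengths lay between 19953 and 25119 bp, with 2145 gaps. Shorter gaps formed a shoulder rather than a clear second maximum. The bin from 316 to 398 bp held 1249 gaps, and that from 1995 to 2512 bp held 1090. Gaps of 500 bp or less numbered 9923, which is 19.5% of gaps and 0.0730% of gap length. Gaps of 100 kb or more were 10.7% of gaps and 74% of gap length. Fixed windows of 1 Mb showed the same unevenness, with a median of 10 peaks, quartiles of 3 and 26 and a highest count of 166. The 291 fullest of 2914 windows held 36.1% of the peaks, and 397 windows held none.

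The fullest window lay on chromosome 9 from 17000001 to 18000000, with 166 peaks over 26.2% of its length. It held 13 H3K4me3 and 109 H3K9me3 centres. Ranks 2 and 3 were neighbours on chromosome 7, at bases 11000001 to 12000000 (133 peaks) and 12000001 to 13000000 (129 peaks), and they held 74 and 75 H3K4me3 centres. Chromosome 10 had the windows ranked 4 and 5, at 105000001 to 106000000 (124 peaks) and 74000001 to 75000000 (116 peaks). Windows with the most acetylated peaks thus differed widely in the promoter mark.

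Peaks that stood alone were more often promoter-marked than peaks in company. With a neighbour within 500 bp, 23.9% of peaks overlapped H3K4me3 (95% Wilson interval 23.3% to 24.5%). The share was 32.1% (31.3% to 32.9%) with the nearest neighbour 0.5 to 5 kb away, 55.4% (54.6% to 56.2%) at 5 to 50 kb and 60.7% (59.1% to 62.2%) beyond that. The order was the same within width classes. Among peaks of 1 to 2 kb the shares were 23.0%, 38.7%, 62.3% and 69.5% (67.0% to 71.8%), and among those of 2 to 5 kb they were 44.5%, 59.4%, 76.2% and 77.2% (74.2% to 79.9%). Isolation thus went with H3K4me3 in both classes.

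For all widths together, the other lists did not follow that course. H3K4me1 was met by 80.8% of peaks with a neighbour within 500 bp and 73.6% (72.2% to 75%) of those with none within 50 kb. Its share was highest between these groups, at 84.1% (83.5% to 84.6%) with the nearest neighbour 5 to 50 kb away. SOX9 was met by 22.6% and 20.3%, and SOX6 by 25.2% and 24.5%, differences of less than 3 percentage points over all widths. Within the class of 2 to 5 kb the SOX shares were higher in company. SOX9 was met there by 53.2% (51.6% to 54.9%) of peaks with a neighbour within 500 bp and 40.3% (37.1% to 43.7%) of those with none within 50 kb, and SOX6 by 55.7% (54.0% to 57.3%) and 44.7% (41.4% to 48.1%). In the class of 1 to 2 kb the intervals of the same groups overlapped, where SOX9 shares were 19.9% in company and 19.8% in isolation, and SOX6 shares 23.5% and 23.9%. H3K9me3 was met by 11.5% (11.1% to 12%) of the crowded and 7.11% (6.34% to 7.97%) of the isolated ones. The H3K9me3 share was lowest, 4.74% (4.42% to 5.08%), with the nearest neighbour 5 to 50 kb away. Wide peaks were in company more often than the list as a whole. Of the 1381 peaks of 5 kb or more, 735 had a neighbour within 500 bp and 22 had none within 50 kb. Over the whole list, 33.8% of peaks had a neighbour within 500 bp and 7.55% had none within 50 kb. Peaks of 5 kb or more were 4.28% of the crowded and 0.573% of the isolated peaks, against 2.72% of the list.

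**Figure D3:**
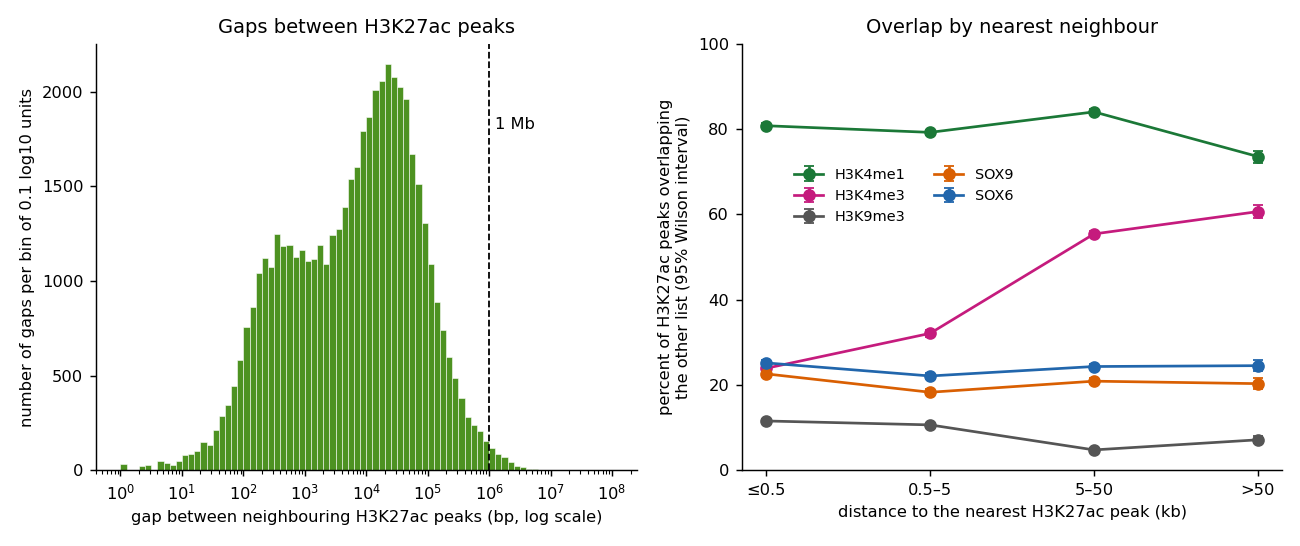
Left, number of gaps between neighbouring H3K27ac peaks by length in bp on a log axis, with the 1 Mb minimum for deserts dashed. Right, percent of H3K27ac peaks that overlap each other list, by distance to the nearest H3K27ac peak in kb, with 95% Wilson intervals. H3K4me3 goes from 23.9% to 60.7%, while SOX9 and SOX6 stay between 18.3% and 25.2% with all widths together.

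Short gaps split many acetylated stretches. Peaks no more than 500 bp apart formed 7237 runs with 17160 peaks, 33.8% of the list, and 224 runs had 5 peaks or more. The longest run by count had 14 peaks over 45.4 kb, on chromosome 19 from 50399576 to 50444981. Runs of 11 peaks lay on chromosome 1 from 141720158 to 141763941 and on chromosome 9 from 29282017 to 29324190. The length of a run includes the gaps inside it. By length, H3K4me3 took up less of the longer runs. It lay over 47.4% of the length of single peaks, 25.6% of that of pairs, 16.8% for 3 or 4 peaks and 13.4% for 5 or more. H3K4me1 went the other way by length, from 64.1% to 70.6%, 71.3% and 72.3%. The share of runs with any H3K4me3 overlap had another order, at 46.3% of single peaks, 39.5% of pairs, 42.2% for 3 or 4 peaks and 58.0% for 5 or more. H3K9me3 overlapped 7.47% of single peaks and 45.1% of runs of 5 or more, whose median length was 10507.5 bp. By length, it lay over 3.45% of single peaks, 4.82% of pairs, 7.36% for 3 or 4 peaks and 10.6% for 5 or more, so it too took up more of the longer runs.

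The short gaps were poorer in SOX centres than the acetylated peaks, but richer than longer gaps. In gaps of 500 bp or less there were 0.161 SOX9 and 0.268 SOX6 centres per 10 kb (33 and 55 centres). Inside the H3K27ac peaks the values were 1.41 and 1.74. They were 0.0675 and 0.0993 in gaps over 500 and up to 1000 bp, and 0.0509 and 0.0667 over the whole span. Within the short gaps the density fell with gap length. In gaps up to 50 bp it was 1.23 for each factor (4 centres each). In gaps over 300 and up to 500 bp it was 0.0673 for SOX9 (7 centres) and 0.173 for SOX6 (18 centres). There SOX9 was no denser than in the next longer gaps. H3K4me1 peaks lay over 28.4% of the length of the gaps of 500 bp or less and H3K4me3 over 4.66%. Some of the gaps recurred in other libraries. Both edges of a gap matched edges of H3K4me1 peaks within 20 bp in 781 of the 9923 short gaps, or 7.87% (7.36% to 8.42%), and the share was highest, 9.95%, for gaps over 100 and up to 200 bp. For gaps over 10 kb and up to 50 kb it was 0.680%. With H3K4me3 the share was 1.56% for short gaps and no lower, 1.83%, for gaps over 500 and up to 1000 bp. For gaps over 10 kb and up to 50 kb the H3K4me3 share was 0.630%. Whether the underlying sequence takes up reads in these gaps was not tested.

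Per input read, acetylated peaks were spread unequally over the autosomes. The median autosome had 3.3 peaks per 1000 exact-match input reads. Chromosome 12 had the most, 5.94 (95% Poisson interval 5.64 to 6.25), followed by chromosome 10 with 5.37 (5.20 to 5.55) and chromosome 20 with 4.91 (4.61 to 5.24). The fewest were on chromosome 11 with 2.14 (2.04 to 2.25), chromosome 16 with 2.52 (2.42 to 2.63) and chromosome 9 with 2.65 (2.56 to 2.74). The top and bottom autosomes differed by a ratio of 2.78 (2.58 to 2.98). X, which is no autosome, had 2.07 (1.94 to 2.21). Counted as covered length, the order at the top turned, with 9.25 bp per read on chromosome 10 and 9.15 on chromosome 12. Chromosomes of a single pair of libraries are not replicates.

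Chromosome 11 also stood apart in the input itself. Only 45.0% of its aligned reads matched exactly, against a median autosome of 85.7%, and it held 22.1% of all mismatched reads with 8.27% of the aligned ones. Per 1000 aligned reads of any kind, it had 0.963 peaks and chromosome 12 had 4.92, a ratio of 5.11. Without chromosome 11 the ratio between the extremes was 2.36 on exact matches and 2.46 on all aligned reads.

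Per Mb the order was different, because the input was unequal too. Chromosome 16 had 2.01 times the input density of the median autosome, chromosome 9 had 2.0 times, chromosome 7 1.88 times and chromosome 11 1.61 times, while chromosome 20 had 0.690 times. Chromosomes 10 and 7 led in peaks per Mb, with 32.5 and 28.4. Chromosomes 9 and 16 had 25.8 and 24.6 peaks per Mb, ranks 4 and 5 of 20, while they ranked 18 and 19 per input read. Chromosome 12, with an input of 0.946, was high on both scales. Over the 20 autosomes, peaks per Mb went with input reads per Mb at a Pearson r of 0.59 and a Spearman rho of 0.53, and at an r of 0.49 without chromosomes 9 and 16. All points share the same 2 libraries, and chromosome span enters both axes.

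Narrow and wide peaks were also set against the input separately. Peaks under 1000 bp per Mb had an r of 0.72 and a rho of 0.66 with input reads per Mb, against 0.54 and 0.48 for peaks of 2000 bp or more. Without chromosomes 9 and 16 the r was 0.59 for the narrow and 0.52 for the wide peaks, and the difference between them was not tested. The middle of the score distribution moved the opposite way. The median score was 214 on chromosome 16, 227 on chromosome 9 and 263 on chromosome 7, the 3 autosomes with the densest input, and 445 on chromosome 20, the one with the sparsest. The r of median score with input density was -0.80 (rho -0.67) and stayed negative without chromosomes 9 and 16 (-0.62). Median width had an r of -0.73 (rho -0.54), or -0.49 (rho -0.37) without chromosomes 9 and 16, with 1054.5 bp on chromosome 16 and 1340 bp on chromosome 15. The share of peaks at a score of 3100 did not join them, with an r of 0.27, or 0.63 without chromosomes 9 and 16. The part of input density in these differences was not tested.

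**Figure D4:**
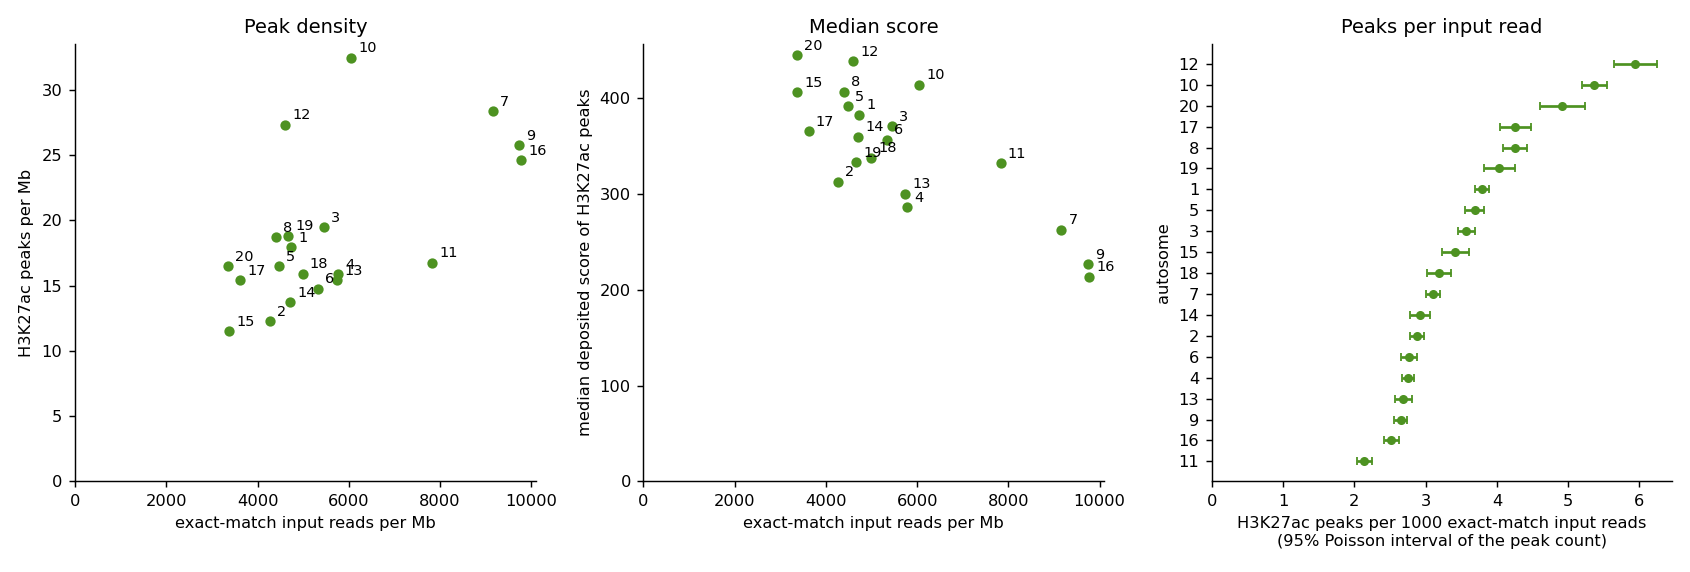
Left and middle, H3K27ac peaks per Mb and the median deposited score against exact-match input reads per Mb, 1 labelled point per autosome. Right, peaks per 1000 exact-match input reads with the 95% Poisson interval of the peak count. Chromosomes 7, 9 and 16 join dense input, many peaks per Mb and low median scores, and chromosomes 12, 10 and 20 lead per read.

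Large parts of the genome held no acetylated peak. A desert is a gap of 1 Mb or more between neighbouring H3K27ac peaks. There were 363, with a median length of 1.51 Mb, and together they took up 755 Mb, or 26.1% of the span between the first and last peaks of the chromosomes. Of these, 95 reached 2 Mb and 12 reached 5 Mb. The share of a chromosome's span in deserts was 45.1% on X, with 32 deserts, and 38.0% on chromosome 4. On chromosome 4, 67.0 Mb lay in stretches of 1 Mb or more without a peak of any list, against 94.4 Mb in deserts. Most of its desert share was thus empty in every list. On X the values were 23.0 and 69.2 Mb. Chromosome 9 had the smallest autosomal share, 8.07% with 6 deserts, and chromosome 7 had 12.9%.

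The longest desert spanned 65.3 Mb on chromosome 4 from 67918172 to 133185580, and all 5 other lists together had 2 peak centres in it. The next lay on chromosome 2 from 20758819 to 40753818 (20 Mb), with 57 H3K9me3, 4 H3K4me1, 2 H3K4me3 and 1 SOX9 centres. The desert on chromosome 19 from 11729485 to 23616214 (11.9 Mb) held 12 H3K9me3, 2 H3K4me1 and 1 H3K4me3 centres. That on chromosome 6 from 9838177 to 20146693 (10.3 Mb) held 1 H3K4me1 centre and nothing else. X had the deserts ranked 5 and 8, from 95586793 to 103774966 and from 144620177 to 150936002, with 0 H3K4me1 centres in either. Chromosome 11 contributed bases 3279897 to 10447884 (7.17 Mb), and chromosome 13 bases 5338588 to 12035608 (6.70 Mb). The desert ranked 10 was on chromosome 3, at bases 2898715 to 8607813. A second desert of chromosome 2, at bases 150261918 to 156134514, was unlike the rest in holding 9 H3K4me1 and 10 SOX6 centres.

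Parts of these deserts were empty in every list. Over the genome, 85 stretches of 1 Mb or more, 240.5 Mb in all, had no peak of any of the 6 lists. The longest ran for 65.2 Mb on chromosome 4 from 67919747 to 133133558, and others ran for 19.6 Mb on chromosome 2, 11.4 Mb on chromosome 19 and 10.3 Mb on chromosome 6. Whether rn5 holds sequence there to which reads can align was not tested, and the input files give reads per chromosome only. Without the empty stretches, 514.6 of the 755 Mb in deserts remained. With the empty stretches taken out of the spans, peaks per Mb on chromosome 4 went from 15.9 to 21.7, and the r between peak and input density went from 0.59 to 0.50.

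Deserts were not without marks. H3K9me3 had 7725 centres in deserts, 14.7% of its list. With the empty stretches included, this was 10.2 per Mb of desert, against 19.7 in the shorter gaps between H3K27ac peaks. The ratio was 0.518 (95% conditional interval 0.506 to 0.531), and 0.760 (0.742 to 0.779) with the empty stretches taken out. A desert of 4.87 Mb on chromosome 12, from 33523572 to 38394879, held 903 of these centres, and without chromosome 12 the ratio was 0.431 (0.419 to 0.443). The next richest were a desert of 2.23 Mb on chromosome 3 from 174228559 to 176454195 with 580 and a desert of 1.68 Mb on chromosome 6 from 139058026 to 140739692 with 564. Of the 363 deserts, 326 (89.8%) overlapped at least 1 H3K9me3 peak. Intervals this long meet most lists: 317 deserts overlapped H3K4me1, 289 H3K4me3, 201 SOX9 and 220 SOX6. Among gaps over 0.5 and under 1 Mb, 83.0% overlapped H3K9me3.

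H3K4me1 was the sparsest in deserts relative to other gaps. It had 1.48 centres per Mb against 25.4, a ratio of 0.0583 (0.0549 to 0.0619). For H3K4me3 the values were 0.450 and 1.61 per Mb, a ratio of 0.280 (0.250 to 0.314), for SOX9 0.474 and 1.35, a ratio of 0.352 (0.314 to 0.393), and for SOX6 0.507 and 2.27, a ratio of 0.223 (0.201 to 0.248). With the empty stretches taken out, the H3K4me1 ratio was 0.0855 and the SOX9 ratio 0.516. The active marks coincide with H3K27ac over the genome, so a low density where H3K27ac is missing over 1 Mb is partly set by how deserts were defined. The SOX peaks inside had low scores within their own lists, with medians of 56.4 against 90.3 over the list for SOX9 and 61.9 against 104 for SOX6. The H3K4me3 peaks inside had a median of 163 against 1674.

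**Figure D5:**
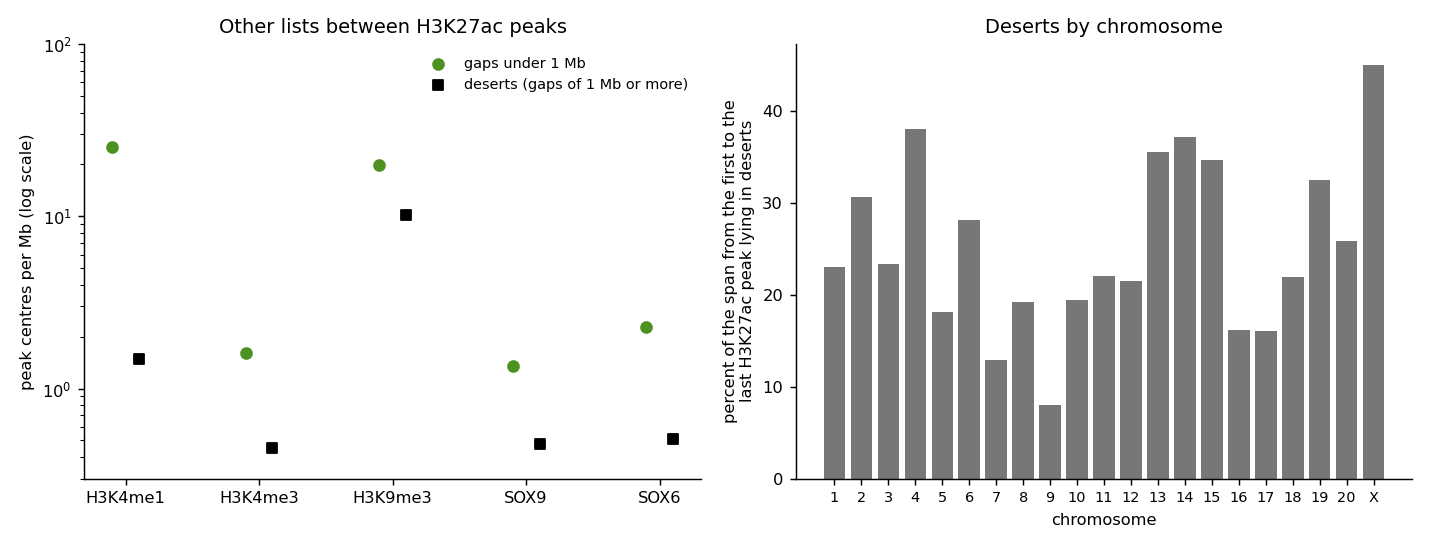
Left, peak centres per Mb of each other list in deserts (black squares) and in gaps under 1 Mb between H3K27ac peaks (green circles), on a log axis. Right, percent of each chromosome's span from the first to the last H3K27ac peak that lies in deserts. H3K4me1 differs most, with 25.4 and 1.48 per Mb, and X has the highest share in deserts, 45.1%.

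Peaks at the rim of deserts were narrower than the list at the median, but this was not particular to them. The 692 peaks beside a desert were 1022 bp wide at the median, against 1212 bp over the list, and 10.1% had a score of 3100, against 18.4%. Peaks with both neighbours 100 kb or more away had a median of 1041 bp, with 9.38% at 3100. Those with a neighbour within 500 bp had 1057 bp, with 18.7% at 3100. Rim peaks overlapped H3K4me3 in 57.7% (53.9% to 61.3%), as isolated peaks did in general, and H3K4me1 in 64.7% (61.1% to 68.2%). SOX9 was met by 21.1% (18.2% to 24.3%) of them, an interval that includes the 20.7% of the whole list. SOX6 was met by 20.2% (17.4% to 23.4%) of the rim peaks, an interval below the 24.0% of the whole list. Between 2 deserts stood 34 single peaks, 915 bp wide at the median, and none of them reached 5 kb. Of these, 61.8% (45.0% to 76.1%) overlapped H3K4me3.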

How the data were processed

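The H3K27ac peaks, their deposited score and the reads per chromosome of the H3K27ac input were used, with the other 5 peak lists for overlaps. Each peak list was deposited by the authors for 1 library, with peak names that carry MACS. Per the submitters' processing notes, CASAVA 1.8 and rn5 were used. For the peak caller, the sources used here give no version, settings or control. Input read counts were deposited raw, per the file headers, split by mismatches. Unmatched reads stayed out of all densities.

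Peaks were read as intervals counted from 0. An overlap meant 1 bp or more, gaps ran from edge to edge within a chromosome, and a centre was the midpoint of a peak. Python 3.11.15, numpy 2.4.6, pandas 2.3.3, scipy 1.17.1 and matplotlib 3.10.9 were used, and the interval functions were tested on simulated data. Shares carry Wilson and rates exact Poisson 95% intervals. With 1 library per antibody, no test was made. Regions named are the 10 widest peaks, the 10 longest deserts, the 5 fullest windows of 1 Mb and the 3 autosomes at each end per input read. The longest runs, the deserts richest in H3K9me3 and the empty stretches were named after their values were seen. The members and lists were chosen with earlier results of these data known. Alternatives were another score limit, joining of peaks, other desert limits and other inputs.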

Additional observations from a re-analysis of the deposited data

How the results depend on the processing

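Widths, gaps and desert counts depend on what counts as a peak. With only peaks above the median score, the median width was 2050 bp, the share of length in peaks of 5 kb or more 15.8%, the median gap 24860 bp, the ratio between the extreme autosomes 2.99 and the r with input density 0.36. With peaks within 500 bp joined, the values were 1552 bp, 23.6%, 15410.5 bp and, for r, 0.54. Between peak centres the median distance was 10111 bp. Deserts numbered 964 at a minimum of 0.5 Mb and 95 at 2 Mb, against 363 at 1 Mb; they numbered 497 with peaks above the median score, 363 with peaks joined and 364 with chromosome ends added. With all aligned input reads the autosome ratio was 5.11 and r was 0.36. The ratio was 2.36 without chromosome 11, and 2.46 with all aligned reads and without it, both chosen after seeing the data. The r was 0.60 with the input of the methylation marks, 0.57 for covered length, 0.49 without chromosomes 9 and 16, and 0.50 without the empty stretches, the last added after seeing the data. The cause of these shifts was not tested. These alternatives cover 6 quantities (median width, length share, median gap, desert count, autosome ratio and r), and r stayed positive under each. The leading autosome did change, from chromosome 12 in peaks per read to 10 in covered length. No alternative was run for other lists by width class, neighbours, runs, SOX positions or edge matches. No paired analysis was possible because each group has 1 library. The depth of the H3K27ac library was not used here, so an absent peak is not an absent mark.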
